A study of Mus musculus with 6 samples.

Results

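Hedgehog signalling carries a message from the seminiferous tubule to the tissue around it. In the mouse testis the ligand Desert hedgehog is secreted by Sertoli cells and received by peritubular myoid cells and by interstitial cells, including the forerunners of Leydig cells. The receptor Patched 1 holds Smoothened inactive until ligand binds it, after which the GLI transcription factors switch on target genes, among them those for Patched 1, GLI1 and the ligand trap HHIP. The 8 genes described here are the ligand Dhh, the receptors and trap Ptch1, Smo and Hhip, the transcription factors Gli1, Gli2 and Gli3, and the inhibitor Sufu. They were picked by symbol from the 54532 rows of the deposited table and not by a rule on their values, though earlier results of these data were known. All 8 were found and were among the 17669 genes tested.

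Poly(A) RNA of whole mouse testis was sequenced at postnatal day 9. The groups were Ppp6r3 cKO testis, with a conditional knockout of a regulatory subunit of protein phosphatase 6, and wild type testis, with 3 libraries each. The Cre line, the deleted exons and the strain are not given in the labels. No label says that libraries of 1 genotype are from different animals, and the spread behind each p-value may then be technical. Values are FPKM, fragment counts scaled to exon length and library size. The scaling to length allows a comparison of levels between genes, but that comparison depends on the annotated exon lengths.

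The libraries held 15970908 to 16606868 fragments, a depth read from the steps between the FPKM values. Ppp6r3 itself ranged from 14.9 to 15.8 FPKM in Ppp6r3 cKO libraries and from 20.8 to 21.3 FPKM in wild type libraries (limma log2 fold change -0.45, adjusted p = 0.000697). Markers of Sertoli, Leydig, interstitial, myoid and endothelial cells were all above 0 in every library. Ppp6r3 cKO replicate 1 stood apart in how its values ran with the GC content of genes. Its median deviation was 0.13 on the log2 scale in the GC-richest of 10 bins and -0.11 in the GC-poorest. In whole tissue, fewer cells of a type and less RNA per cell cannot be told apart.

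The promoters of the 3 members that rose are shown because Ptch1 and Hhip are described targets of the GLI factors. Each window runs from 250 bases before to 50 bases after a RefSeq start (GRCm38.p6, the assembly also called mm10), 5′ to 3′ on the strand of the gene. Capitals mark CCACCC or its reverse complement GGGTGG, the core of the GLI consensus GACCACCCA. The windows are chr13:63565686-63565985 on the minus strand for Ptch1, chr8:80057959-80058258 on the minus strand for Hhip and chr6:29735247-29735546 on the plus strand for Smo.
Ptch1: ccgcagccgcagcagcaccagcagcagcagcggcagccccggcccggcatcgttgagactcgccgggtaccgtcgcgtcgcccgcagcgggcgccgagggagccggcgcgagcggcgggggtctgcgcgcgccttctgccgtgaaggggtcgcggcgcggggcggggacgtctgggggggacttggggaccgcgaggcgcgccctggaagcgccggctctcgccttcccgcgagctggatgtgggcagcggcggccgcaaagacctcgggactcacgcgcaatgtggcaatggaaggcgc
Hhip: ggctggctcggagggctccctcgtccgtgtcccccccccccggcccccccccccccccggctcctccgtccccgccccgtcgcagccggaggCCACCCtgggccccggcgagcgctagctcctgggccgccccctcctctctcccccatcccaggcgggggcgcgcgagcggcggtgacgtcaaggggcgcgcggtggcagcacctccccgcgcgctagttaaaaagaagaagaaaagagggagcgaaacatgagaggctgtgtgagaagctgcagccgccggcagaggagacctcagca
Smo: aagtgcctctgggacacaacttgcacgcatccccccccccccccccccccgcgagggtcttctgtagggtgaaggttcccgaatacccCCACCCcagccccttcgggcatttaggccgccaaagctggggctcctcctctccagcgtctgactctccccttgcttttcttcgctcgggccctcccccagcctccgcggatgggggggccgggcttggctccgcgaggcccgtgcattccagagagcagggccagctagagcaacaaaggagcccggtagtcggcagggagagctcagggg

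On both strands, neither the consensus GACCACCCA nor any sequence with 1 mismatch to it was found in the windows of the 7 members matched in the promoter table used here; Gli1 was not analysed here. Among all 32851 windows of that length, 0.253% held the consensus and 6.74% held it with up to 1 mismatch. The core occurred once in the Hhip and Smo windows, once in those of Dhh and Gli3, at 2 places in that of Gli2, and not in those of Ptch1 and Sufu. It is common, with 31.5% of all windows holding it. Ptch1 has further starts in GENCODE M21, upstream to position 63573598, which this window does not cover. The absence of these letters from a window says nothing of the factor elsewhere.

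Of the 8 members, Ptch1, Smo and Hhip rose in Ppp6r3 cKO testis, none fell and 5 did not pass (limma, adjusted p under 0.05). All 8 log2 fold changes were above 0, with a median of 0.16, against 0.0027 over all genes tested, of which 50.5% were above 0. After correction of each library for GC content and length, Gli1, Gli2 and Gli3 were at 0.0026, 0.0056 and 0.03. Of all genes tested, 15.5% changed, 7.66% rose and 7.83% fell. The groups did not overlap for 5 members, all higher in Ppp6r3 cKO testis. That held for 36.9% of all genes tested in either direction and for 18.8% in the higher direction.

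**Figure D1:**
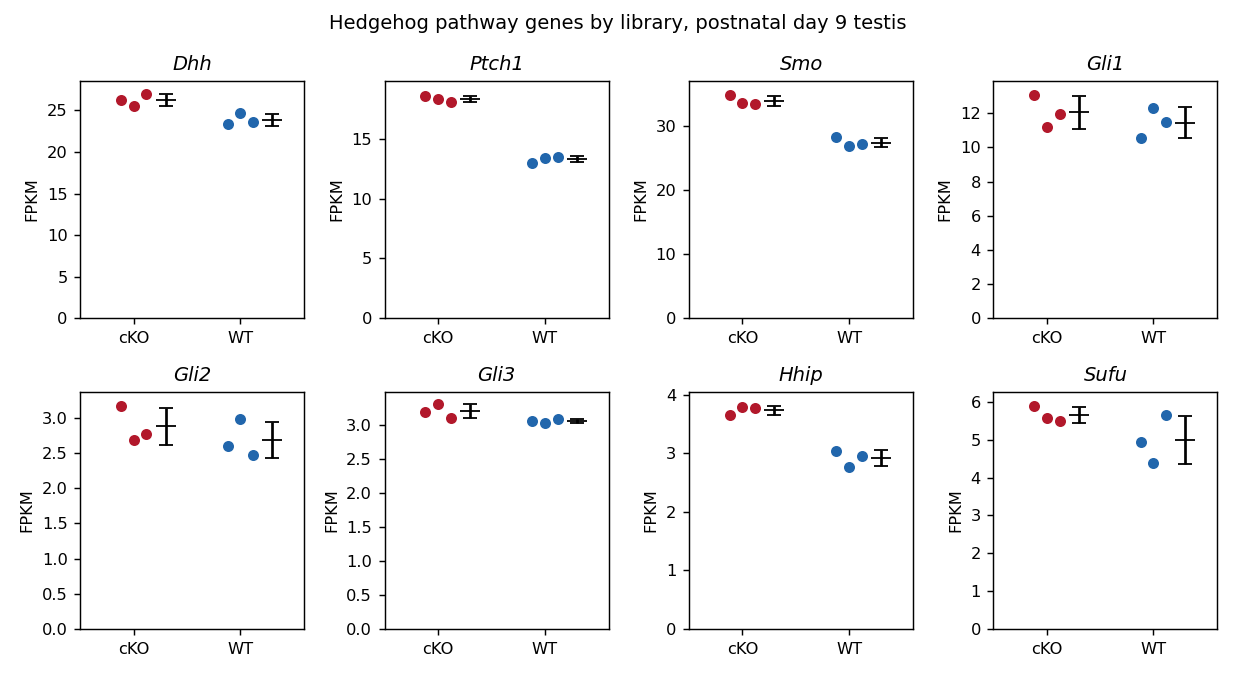
FPKM of each of the 8 Hedgehog genes in the 3 Ppp6r3 cKO (red, left) and 3 wild type (blue, right) libraries, with mean ± SD in black and each vertical axis from 0. The groups stand apart for Ptch1, Smo, Hhip, Dhh and, narrowly, Gli3, and overlap for Gli1, Gli2 and Sufu.

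Dhh is the ligand of the pathway in the testis (ENSMUSG00000023000, chromosome 15, 98891152 to 98898540 in mm10, minus strand). It stood at 26.3, 25.6 and 27.0 FPKM in Ppp6r3 cKO libraries, against 23.4, 24.7 and 23.6 FPKM in wild type libraries. Every Ppp6r3 cKO library lay above every wild type library, but the gap between the nearest libraries was small and the log2 fold change of 0.14 (SE 0.043, limma adjusted p = 0.0654) did not pass. Of the 17 alternative settings, only voom on the recovered fragments called Dhh higher (adjusted p = 0.0322). Voom also called more genes of all tested, 4062 against 2737 in the fit as reported. The exons of Dhh share 546 bases with Rhebl1 on the same strand (2.53 to 3.45 FPKM over the 6 libraries) and 1107 bases with the antisense gene Gm49442 (2.56 to 4.03 FPKM), so some fragments may be shared. Of the 3 Hedgehog ligands only Dhh was above 1 FPKM. Shh, Sonic hedgehog, had 0.13 to 0.24 FPKM in Ppp6r3 cKO and 0.11 to 0.17 FPKM in wild type testis, too few fragments to be tested. Ihh, Indian hedgehog, had 0.16 to 0.23 FPKM in Ppp6r3 cKO and 0.16 to 0.26 FPKM in wild type testis, and did not pass (log2 fold change -0.10, limma adjusted p = 0.780).

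Ptch1, the Hedgehog receptor (ENSMUSG00000021466, chromosome 13, 63508328 to 63573598 on the minus strand), had the largest change of the 8. It stood at 18.6, 18.3 and 18.1 FPKM in Ppp6r3 cKO libraries, against 13.0, 13.4 and 13.5 FPKM in wild type libraries. The 2 groups were far apart compared with their spread: 18.4 ± 0.264 FPKM in Ppp6r3 cKO and 13.3 ± 0.266 FPKM in wild type testis (SD, n = 3 each). The log2 fold change was 0.46 (95% interval 0.36 to 0.55, limma adjusted p = 0.000626), or 1.37-fold. Ptch1 was also the member counted on the most fragments, 3066 to 4332 per library.

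Smo, the membrane protein that Patched 1 restrains (ENSMUSG00000001761, chromosome 6, 29735503 to 29761365 on the plus strand), stood at 34.9, 33.7 and 33.5 FPKM in Ppp6r3 cKO libraries, against 28.3, 27.0 and 27.2 FPKM in wild type libraries. The groups did not overlap. The log2 fold change was 0.31 (95% interval 0.22 to 0.40, limma adjusted p = 0.00293), or 1.24-fold. With 57.0% GC, Smo lies in the second highest of 10 GC bins, whose median log2 fold change was 0.045. After correction of each library for GC content and length, Smo was at 0.24 and still passed (adjusted p = 0.00347).

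Hhip binds Hedgehog ligands at the cell surface and limits their reach (ENSMUSG00000064325, chromosome 8, 79965851 to 80058006 on the minus strand). It stood at 3.65, 3.78 and 3.77 FPKM in Ppp6r3 cKO libraries, against 3.04, 2.76 and 2.95 FPKM in wild type libraries. The groups did not overlap, on 416 to 552 fragments per library. The log2 fold change was 0.35 (95% interval 0.17 to 0.52, limma adjusted p = 0.0215), or 1.27-fold. This call was lost without Ppp6r3 cKO replicate 2 (adjusted p = 0.0635) or 3 (0.0604), and without wild type replicate 2 (0.0765) or 3 (0.0623), while the log2 fold change stayed between 0.31 and 0.38 without any single library.

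None of the 3 GLI transcription factors passed. Gli1, an activator that is itself a target of the pathway (ENSMUSG00000025407, chromosome 10, 127329882 to 127341974 on the minus strand), stood at 13.1, 11.2 and 11.9 FPKM in Ppp6r3 cKO libraries, against 10.5, 12.3 and 11.5 FPKM in wild type libraries. The groups overlapped, with the highest value in Ppp6r3 cKO replicate 1 and the lowest in wild type replicate 1. The log2 fold change was 0.08 (95% interval -0.10 to 0.25, limma adjusted p = 0.549), and 0.0026 after the GC and length correction. Without Ppp6r3 cKO replicate 1, the library that stood apart by GC content, it was 0.02. The upper end of the 95% interval of Gli1, 0.25, lies below the lower end of the Ptch1 interval, 0.36. Gli1 shares 62 bases of exon with Arhgap9 and 265 bases with the antisense gene Gm47200, both on the opposite strand. Also on the opposite strand, Gli3 shares 188 bases with Gm6556 and Hhip 175 bases with Gm27820.

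Gli2, the main activator upstream of Gli1, stood at 3.17, 2.69 and 2.77 FPKM in Ppp6r3 cKO libraries, against 2.60, 2.97 and 2.47 FPKM in wild type libraries (log2 fold change 0.10, 95% interval -0.15 to 0.34, limma adjusted p = 0.585). Gli2 lies in the GC-richest of 10 bins, whose median was 0.089, and its log2 fold change was 0.0056 after the GC and length correction. It was 0.03 without Ppp6r3 cKO replicate 1, 0.04 without wild type replicate 3 and 0.17 without wild type replicate 2. Gli3, whose processed form represses targets when no ligand is present, stood at 3.19, 3.31 and 3.11 FPKM in Ppp6r3 cKO libraries, against 3.06, 3.04 and 3.10 FPKM in wild type libraries. Its groups just missed overlapping, and the log2 fold change of 0.06 did not pass (95% interval -0.11 to 0.24, limma adjusted p = 0.618), and it was 0.03 after the correction. Gli2 (ENSMUSG00000048402) lies on chromosome 1 (118834132 to 119053619, minus strand) and Gli3 (ENSMUSG00000021318) on chromosome 13 (15463235 to 15730026, plus strand).

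Sufu, which binds GLI proteins in the cytoplasm and holds them inactive (ENSMUSG00000025231, chromosome 19, 46396896 to 46488804 on the plus strand), stood at 5.89, 5.58 and 5.49 FPKM in Ppp6r3 cKO libraries, against 4.94, 4.38 and 5.64 FPKM in wild type libraries. Wild type replicate 3 lay inside the range of the Ppp6r3 cKO libraries. The log2 fold change was 0.18 (95% interval -0.031 to 0.40, limma adjusted p = 0.223). It was 0.11 after the GC and length correction, 0.10 without wild type replicate 2 and 0.27 without wild type replicate 3. Sufu had the widest spread of the 8 within wild type testis relative to its level (4.99 ± 0.632 FPKM, SD, n = 3).

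By level, Smo came first in both groups, followed by Dhh, Ptch1, Gli1 and Sufu, and within each group none of these 5 overlapped its neighbour in that order. Below them, Hhip (3.73 ± 0.0736 FPKM, SD, n = 3) stood above Gli3 (3.21 ± 0.101 FPKM) in Ppp6r3 cKO testis without overlap. In wild type testis Hhip (2.92 ± 0.141 FPKM) and Gli3 (3.07 ± 0.0297 FPKM) overlapped. Gli2 had the lowest mean in both groups and overlapped Gli3 in Ppp6r3 cKO testis and Hhip in wild type testis.

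**Figure D2:**
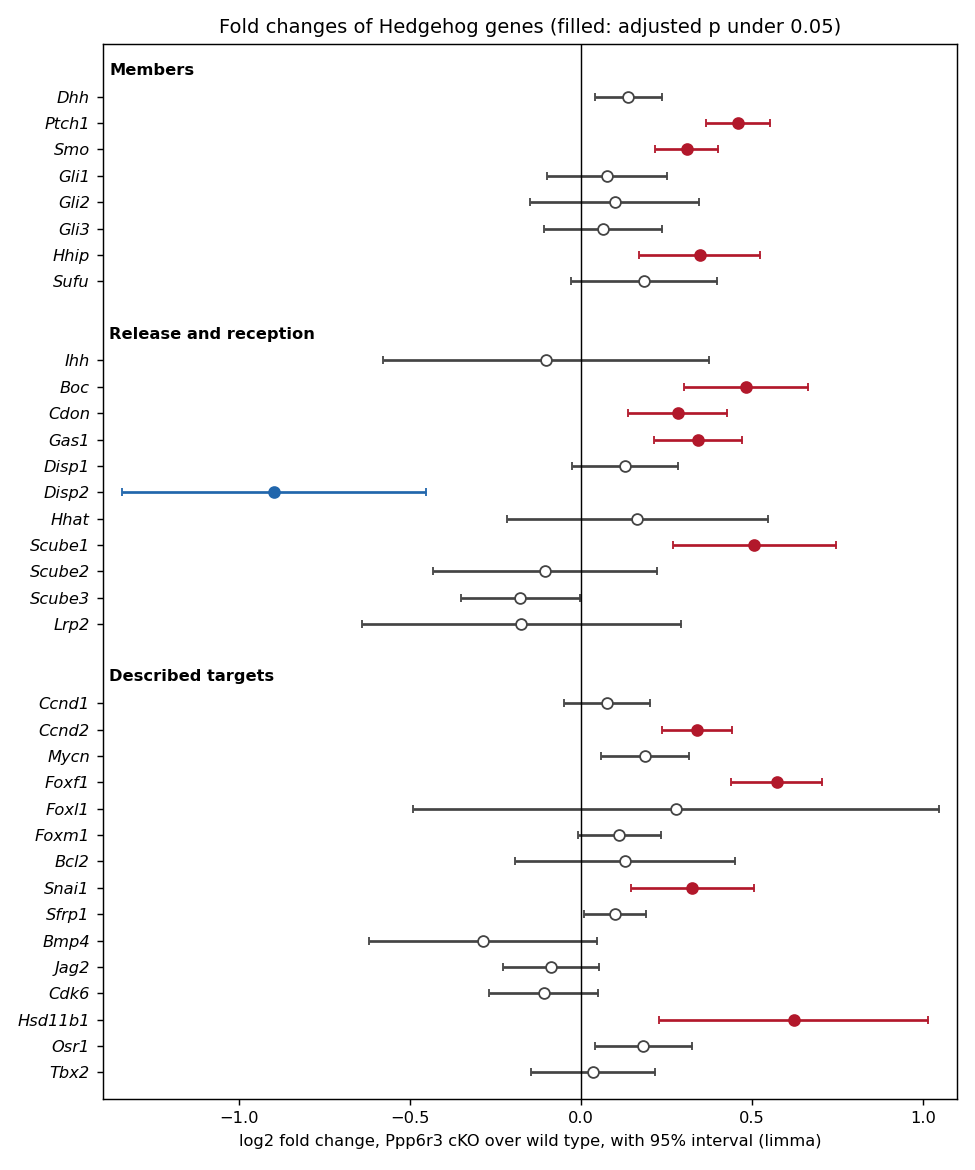
Log2 fold change of Ppp6r3 cKO over wild type testis (horizontal axis) with its 95% interval from limma, for the 8 members and for the reported genes of the release and reception list and of the described targets. Filled points passed (red higher, blue lower), and the filled red points include Ptch1 at 0.46, Boc at 0.48 and Foxf1 at 0.57, while Gli1 lies at 0.08.

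Other genes of the pathway were read from 3 lists written for this work from general knowledge, 64 genes in all, of which 59 were tested. Of those 59, 10 rose, 3 fell and 46 did not pass, while 7.66% of all genes tested rose and 7.83% fell. Ligand release and reception had 12 tested genes, of which 4 rose and 1, Disp2, fell (median log2 fold change 0.14).

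Boc, a co-receptor that presents ligand to Patched 1, stood at 9.36, 10.4 and 11.6 FPKM in Ppp6r3 cKO libraries, against 7.25, 7.34 and 7.74 FPKM in wild type libraries (log2 fold change 0.48, limma adjusted p = 0.00691). Its relative Cdon stood at 9.67, 9.91 and 10.1 FPKM in Ppp6r3 cKO libraries, against 7.58, 8.03 and 8.81 FPKM in wild type libraries (log2 fold change 0.28, limma adjusted p = 0.0224). The Cdon call was lost without Ppp6r3 cKO replicate 2 or 3 or wild type replicate 1 or 2. Gas1, a co-receptor anchored in the membrane by a lipid, was at 12.4 ± 0.365 FPKM in Ppp6r3 cKO and 9.79 ± 0.549 FPKM in wild type testis (SD, n = 3 each), and its log2 fold change was 0.34 (limma adjusted p = 0.00688). For Boc, Cdon and Gas1 every Ppp6r3 cKO library lay above every wild type library. Lrp2, another described co-receptor, was low (0.22 to 0.28 FPKM in Ppp6r3 cKO and 0.23 to 0.38 FPKM in wild type testis) and did not pass (log2 fold change -0.18, limma adjusted p = 0.606).

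Scube1, of a family of secreted proteins that help release the ligand, had a log2 fold change of 0.51 (2.37 ± 0.184 FPKM in Ppp6r3 cKO and 1.64 ± 0.0299 FPKM in wild type testis, SD, n = 3 each; limma adjusted p = 0.0160, not called without wild type replicate 2). Disp2, a relative of the ligand transporter Disp1, fell, on only 5 to 9 fragments per Ppp6r3 cKO library against 25 to 27 per wild type library. Its log2 fold change of -0.90 (adjusted p = 0.0191) depends on the pseudocount, at -0.16 with a pseudocount of 1 and -1.76 with 0.01, and the call was lost without Ppp6r3 cKO replicate 2 or any wild type library. Disp1 itself was at 0.13 and did not pass (adjusted p = 0.241).

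Of 32 regulators in the cytoplasm and the primary cilium, the organelle in which Smoothened and the GLI proteins meet, 2 rose and 2 fell. The shares over all genes tested were 7.66% and 7.83%. The median over the list was 0.0011. Evc2, part of a complex that acts beside Smoothened at the base of the cilium, was at 6.46 ± 0.216 FPKM in Ppp6r3 cKO and 4.89 ± 0.174 FPKM in wild type testis (SD, n = 3 each), with a log2 fold change of 0.39 (limma adjusted p = 0.00543). Arrb2, the adaptor beta-arrestin 2, rose by 0.24 (adjusted p = 0.00807). Ift88, needed to build cilia, was at 5.91 ± 0.177 FPKM in Ppp6r3 cKO and 7.96 ± 0.285 FPKM in wild type testis (SD, n = 3 each), with a log2 fold change of -0.42 (limma adjusted p = 0.00309). Ift122 fell by 0.30 (adjusted p = 0.0462), a call lost without any single library other than Ppp6r3 cKO replicate 1.

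Of 20 genes described as Hedgehog targets in at least some tissue, 16 were tested. Among these 4 rose and none fell, against 7.66% and 7.83% of all genes tested, and the median was 0.14. Foxf1, a forkhead factor of mesenchymal cells, stood at 11.8, 10.7 and 11.5 FPKM in Ppp6r3 cKO libraries, against 7.38, 7.46 and 7.99 FPKM in wild type libraries (log2 fold change 0.57, limma adjusted p = 0.00107). The groups lay far apart, with a log2 fold change above that of each of the 8 members; whether it differed from that of Ptch1 was not tested. Ccnd2, cyclin D2, stood at 18.0, 19.0 and 18.0 FPKM in Ppp6r3 cKO libraries, against 14.2, 14.9 and 14.4 FPKM in wild type libraries (log2 fold change 0.34, limma adjusted p = 0.00309). Snai1 (log2 fold change 0.32, adjusted p = 0.0286) was not called without Ppp6r3 cKO replicate 1 or any wild type library. Hsd11b1 (log2 fold change 0.62, adjusted p = 0.0445), with 20 to 41 fragments per library, was not called without any of the 6. Foxf2, Foxd1, Nkx2-2 and Grem1 had too few fragments to be tested.

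Markers of the cells that make and receive the signal, and of other cell types, were read from lists. Their sums in whole tissue do not measure numbers of cells. Beside the counts of markers given below, 7.66% of all genes tested rose and 7.83% fell. The summed level of 16 Sertoli markers ranged from 2467 to 2546 FPKM in Ppp6r3 cKO and from 2388 to 2451 FPKM in wild type testis, with 4 markers that rose, 4 that fell (Rhox5 at -0.51 and Gata1 at -0.47 the furthest) and 8 that did not pass. The Rhox5 call was lost after the GC and length correction and without Ppp6r3 cKO replicate 1 or any wild type library. The sum of 13 markers of interstitial progenitors and stroma ranged from 629 to 652 FPKM in Ppp6r3 cKO and from 525 to 534 FPKM in wild type testis. Of those 13, 7 rose, none fell and 6 did not pass, led by the collagens Col5a1 (0.52) and Col1a2 (0.41). The 3 most abundant of the 13 were collagens, which made up most of the sum, and all 3 rose. Their means in Ppp6r3 cKO and wild type testis were 174 and 146 FPKM (Col3a1), 142 and 114 FPKM (Col1a1), and 114 and 85.4 FPKM (Col1a2). No marker of either list was at 0 in any library.

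The sum of 14 Leydig markers ranged from 375 to 390 FPKM in Ppp6r3 cKO and from 338 to 348 FPKM in wild type testis. Of the 14, 3 rose, led by Dlk1 (0.48) and Thbs2 (0.41), 1 fell (Ren1 at -0.29) and 10 did not pass. Hsd3b1 (mean 123 FPKM in Ppp6r3 cKO and 103 FPKM in wild type testis) and Dlk1 (61.7 and 44.1 FPKM) differed most in FPKM. The sum of 9 peritubular myoid markers ran the other way, from 868 to 939 FPKM in Ppp6r3 cKO and from 985 to 1035 FPKM in wild type testis. Most of that gap lay in Acta2 (mean 463 FPKM in Ppp6r3 cKO and 552 FPKM in wild type testis). Actg2 (-0.55) and Acta2 (-0.25) were among the 3 that fell, while 6 did not pass and 2 of the 9 log2 fold changes were above 0. Of 12 endothelial markers, 7 rose, with a sum of 82.8 to 90.2 FPKM in Ppp6r3 cKO and 57.7 to 62.7 FPKM in wild type testis (Tie1 at 0.95 and Vwf at 0.87 the furthest). Of 10 macrophage markers 4 rose, led by Trem2 (0.89) and Lyz2 (0.65), with a sum of 156 to 169 FPKM in Ppp6r3 cKO and 118 to 125 FPKM in wild type testis.

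Schwann cells, another known source of Dhh, had markers that summed to 12.3 to 13.0 FPKM in Ppp6r3 cKO and 12.5 to 13.3 FPKM in wild type testis, with 1 of 7 lower and none higher. Germ cell markers summed to 354 to 389 FPKM in Ppp6r3 cKO and 495 to 509 FPKM in wild type testis, with 4 of 8 lower (Stra8 at -1.34 and Sycp3 at -0.80 the furthest) and 1 higher. The part of these cell types in the Hedgehog values was not tested.

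**Figure D3:**
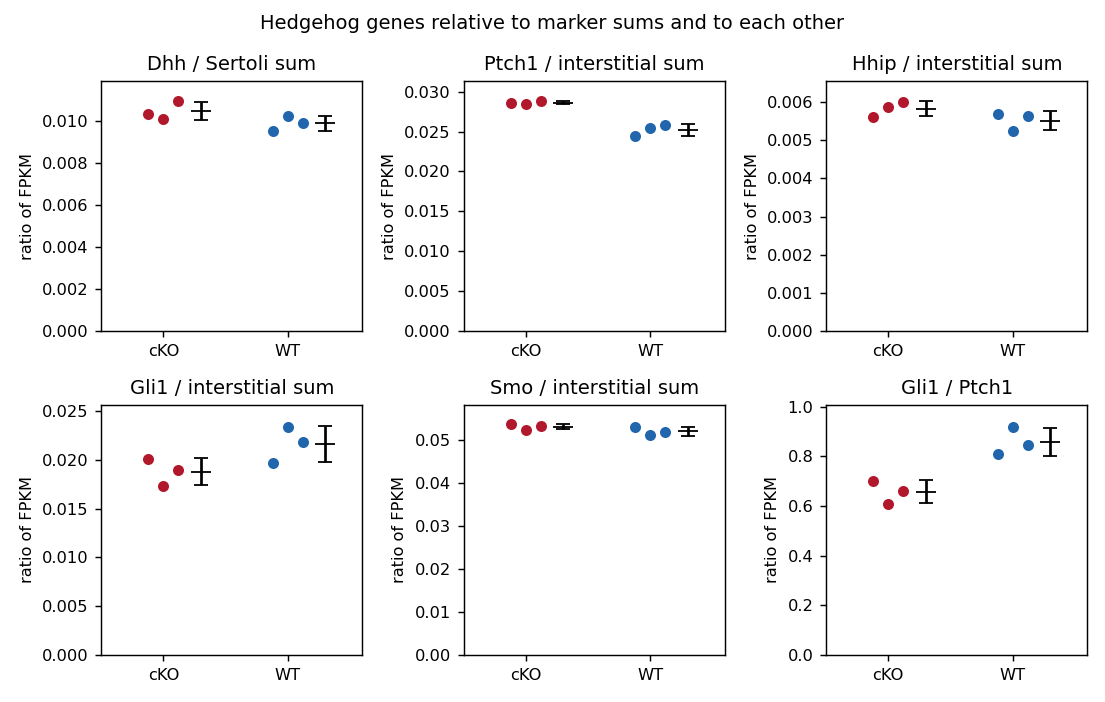
Ratio of the FPKM of a Hedgehog gene to a summed marker level, or to another Hedgehog gene, in each Ppp6r3 cKO (red, left) and wild type (blue, right) library, with mean ± SD in black and axes from 0. The groups stand apart for Ptch1 over the interstitial sum (higher in Ppp6r3 cKO) and for Gli1 over Ptch1 (lower in Ppp6r3 cKO), and overlap in the other 4 panels.

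Ratios to summed markers were taken for 5 members, Dhh against the Sertoli list and Ptch1, Smo, Hhip and Gli1 against the interstitial list. The sums themselves were higher in Ppp6r3 cKO testis, by 0.28 (interstitial) and 0.057 (Sertoli) as log2 ratio of means. Division by a sum lowers each difference by about that much. The smaller differences for Dhh, Ptch1, Smo and Hhip and the opposite sign for Gli1 follow from this by construction. No ratio was taken to the myoid sum, which was lower in Ppp6r3 cKO testis, nor to the Leydig or Schwann sums. The ratio of Ptch1 to the interstitial sum was 0.0286, 0.0285 and 0.0288 in Ppp6r3 cKO libraries, against 0.0244, 0.0254 and 0.0258 in wild type libraries. The groups did not overlap, and the difference in log2 ratio was 0.18 (exact permutation test, 2-sided, p = 0.1, the smallest that 3 against 3 libraries allow). The same ratio of Hhip overlapped between groups (difference 0.079, exact p = 0.3), as did that of Smo (0.031, exact p = 0.2). The ratio of Gli1 to the interstitial sum had a difference of -0.20 (exact p = 0.2), and overlapped. Without the 3 most abundant markers of the list the differences were 0.26 for Ptch1, 0.16 for Hhip, 0.11 for Smo and -0.13 for Gli1. The ratio of Dhh to the Sertoli sum had a difference of 0.082 (exact p = 0.2), and overlapped.

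Ratios between members do not depend on the marker lists. They were chosen after the values were seen, and each difference largely restates the fold changes of the members in it. There were 0.703, 0.610 and 0.659 FPKM of Gli1 per FPKM of Ptch1 in Ppp6r3 cKO libraries, against 0.809, 0.918 and 0.848 in wild type libraries, without overlap (difference in log2 ratio -0.39, exact permutation p = 0.1). The ratio of Ptch1 to Smo was higher in every Ppp6r3 cKO library than in any wild type library (0.15, exact p = 0.1). The ratios of Hhip to Ptch1 (-0.10, exact p = 0.3) and of Gli1 to Hhip (-0.28, exact p = 0.2) overlapped between groups. Adjusted over the 9 ratios reported, the exact p ranged from 0.257 to 0.3, and this design cannot reach 0.05 for a single ratio.

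Over the 6 libraries, the named protein-coding genes whose log2 values followed each of 4 members most closely were listed as a description (Pearson correlation of log2(FPKM + 0.1), 6 points). Gli1 had 17 of 11925 such genes at a Pearson correlation over 0.95, the closest being Dkk3 (r = 0.99), Extl2 (0.99) and Wbp2 (0.98), none of which passed between genotypes. Dhh had 95, led by Fmnl1 (0.99), Jsrp1 (0.99) and Col14a1 (0.99). Hhip had 341, led by Phldb2, Irf2bp2 and Klhl11 (each 0.996 or 0.997), and Ptch1 had 596, led by Lamc3, Fam220a and Ctnnb1 (each 0.998). For Ptch1 and Hhip the points share the difference between the 2 groups, so any gene that differs between genotypes with little spread comes close. The groups did not overlap for Dhh either. With 6 points and 11925 genes, some correlations this high arise between unrelated genes. Whether the 17 of Gli1 exceed that number was not tested.

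**Figure D4:**
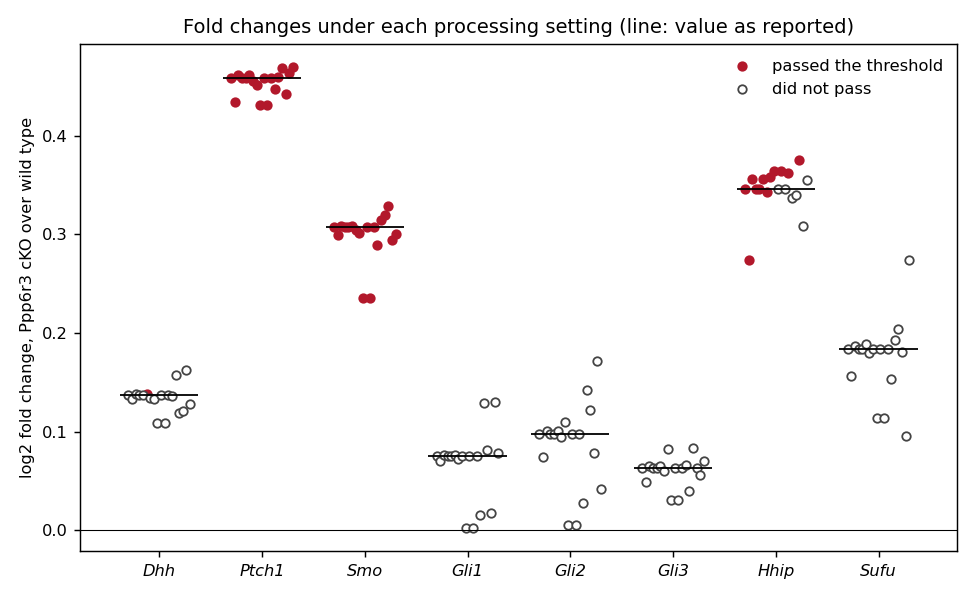
Log2 fold change of each member (vertical axis) in the fit as reported (black line) and under 17 other settings of filter, pseudocount, scaling, model, block, threshold and libraries (points, red where the threshold was passed). Ptch1 and Smo passed in all, Hhip in 11 of the 17, and Gli1, Gli2, Gli3 and Sufu in none, while Dhh passed with voom.

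Ptch1 kept its call under all 17 alternatives run, with log2 fold changes between 0.43 and 0.47. Smo did too, between 0.24 and 0.33. Gli1, Gli2, Gli3 and Sufu passed under none of them, with Gli1 between 0.0026 and 0.13. Foxf1, Boc, Gas1, Ccnd2, Evc2, Arrb2 and Ift88 also kept their calls under all 17.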

How the data were processed

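Poly(A) RNA of the 6 testis samples was made into stranded libraries per the labels' protocols, and paired-end reads were aligned to mm10 with HISAT2 2.0.5 per the series' design text. DESeq2 is named as well, per the submitters' processing notes. The counting tool, its strand setting and the annotation are not given in the sources used here. The deposited values are FPKM computed by the authors, although the file's name speaks of counts: times GENCODE M21 exon length they were whole multiples of 1 step per library (tolerance 0.01) in 97.1% of the 32573 genes above 0 with a length. These steps gave the depth, and fragments of the other genes, Sufu included, are approximate.

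The fit used limma 3.58.1 (R 4.3.3; trend, robust, 2-sided) on log2(FPKM + 0.1). A gene entered with 10 or more recovered fragments in 3 or more libraries. The Benjamini-Hochberg adjustment ran over all 17669 such genes and calls needed an adjusted p under 0.05. Because of the pseudocount, log2 fold changes of low genes are understated. Ratios used scipy 1.17.1. The script was tested on simulated data. No libraries of a group were duplicates, with chi-square over degrees of freedom between 2.22 and 4.35 for each pair. Same-numbered libraries did not deviate together (r from -0.0067 to 0.016). The deposited scaling was kept, since median-ratio factors ran from 1.0006 to 1.0049.

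Members, lists and tests were chosen with earlier results of these data known. The naming rule took the 8 members, Ppp6r3, up to 3 passing genes per direction and pathway list, up to 2 passing genes per marker list and the 3 closest genes of 4 members. Cdon, Lrp2, Snai1, Disp1, Shh, Ihh, Hsd3b1, Ren1, Col3a1, Col1a1, the untested targets and 5 ratios (those of Smo and between members) were chosen after their values were seen. Some genes counted in the lists are not reported here by name.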

Additional observations from a re-analysis of the deposited data

How the results depend on the processing

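No called result changed sign. The count of members called was 2 to 4 over all settings. Over all genes 2737 changed, against 1508 with no filter, 888 at an adjusted p under 0.01 and 1234 to 2397 without 1 library (1619, 1234 and 1324 without wild type replicate 1, 2 or 3). The count over all genes was higher with voom, at 4062, and after the GC and length correction, at 3355. Of the other pathway genes 13 changed, against 8 with no filter, 20 with voom, 20 after the GC and length correction, 7 at 0.01 and 7 to 11 without 1 library (8 and 7 without wild type replicate 1 or 2). A stricter threshold passes fewer genes by construction, and the cause of the other moves was not tested. With the replicate block 2194 genes changed and Hhip had an adjusted p of 0.0519 (0.0386 when the block went with the GC and length correction); the numbers do not pair the samples, and not every sample correlated best with its own number. Without the 3 most abundant markers of each list the difference in log2 ratio to the summed markers was -0.13 for Gli1, 0.26 for Ptch1, 0.16 for Hhip and 0.088 for Dhh. Without 1 library it ranged from -0.27 to -0.14 for Gli1, 0.16 to 0.20 for Ptch1, 0.042 to 0.11 for Hhip and 0.049 to 0.11 for Dhh. For the 5 ratios added after seeing the data, the sign held without any 1 library. Low counts limit Disp2 (5 to 27 fragments per library) and Hsd11b1 (20 to 41).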
